A study of Mus musculus with 4 samples.

Results

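Cadherins are calcium-dependent adhesion proteins that join neighbouring cells at adherens junctions. Their extracellular domains bind cadherins of the next cell, and the intracellular tail of a classical cadherin binds beta- and p120-catenin, which link it to actin. In the developing organ of Corti, E-cadherin (CDH1) is known as a marker of the outer compartment and N-cadherin (CDH2) as a marker of the inner compartment. The set described here consisted of 10 cadherin genes out of the 29924 gene names on the array. It held the type I cadherins *Cdh1*, *Cdh2*, *Cdh3* and *Cdh4*, the type II cadherins *Cdh6*, *Cdh8*, *Cdh10*, *Cdh11* and *Cdh20*, and *Cdh13*, which lacks the catenin-binding tail and is held in the membrane by a lipid anchor. Members were chosen by gene symbol, and every gene probe with such a symbol was taken, 18 probes in all.

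Transcripts of E14.5 cochlear ducts were compared between *Sox2-Tbx2LOF* embryos and controls on 4 Agilent 2-colour arrays, each of which hybridised 1 mutant pool and 1 control pool. Mutants were Sox2(creERT2);Tbx2(fl/fl), and carried 1 copy of the R26mTmG reporter according to the breeding scheme of the study. Their CreERT2, a Cre recombinase that needs tamoxifen, sits in the *Sox2* locus and is driven by the *Sox2* promoter, so that only *Sox2*-expressing cells of a pool could recombine *Tbx2*. Controls were labelled Tbx2(fl/n.d.), with the second allele not determined, and the methods call them cre-negative. All embryos were of the NMRI strain, and all dams received 4 mg of tamoxifen by mouth at E12.5. Arrays 1 and 2 held female pools and arrays 3 and 4 male pools. The red dye Cy5 marked the mutant pool on arrays 1 and 3 and the control pool on arrays 2 and 4, with the green Cy3 on the other pool.

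The spot intensity of the arrays had a median of 262.9 to 291.9 in Cy3 and of 496.5 to 563.4 in Cy5, and 69.2% to 72.0% of probes were well above background in each dye. Of all genes, 21042 were tested, and 1091 passed at an adjusted p below 0.05 (limma, Benjamini-Hochberg over the genes tested). The log2 ratios of tested genes correlated between arrays with the same dye on the mutant pool (r = 0.68 for arrays 1 and 3, 0.62 for arrays 2 and 4). Between arrays with swapped dyes r lay from -0.10 to 0.071, so agreement between arrays was tied to the dye labelling. *Esr1*, whose sequence is part of CreERT2, exceeded its control level at least 4.24-fold in mutant pools (adjusted p = 6.0e-06 by limma), since it was well above background in 4 of 4 mutant and 0 of 4 control pools. *Esr1* entered the test through its mutant pools alone, so its adjusted p is no support for the difference. *Tbx2* itself had a log2 ratio of -0.12 (adjusted p = 0.124 by limma). Among the epithelial markers fixed for the duct, 10 of 10 were tested, and *Epcam* had a mean level of 14.75 in mutant and 14.73 in control pools (log2 normalised intensity).

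All 10 cadherins were measured above background in at least 1 group, and 9 of them were well above background in every pool. In the mutant, 2 cadherins were lower at an adjusted p below 0.05 and 0 were higher. *Cdh20*, a type II cadherin, was at least 1.47-fold lower in the main fit, a limit set by mutant signals not well above background. *Cdh2* fell by 0.17 on the log2 scale. The other 8 had fitted log2 ratios between -0.10 and 0.18 that did not pass. Across the whole array 5.18% of tested genes passed in either direction and 2.92% passed as lower. With the fitted values 0 members were called, which also required a 1.5-fold change, and 0.309% of tested genes were called lower. The limit for *Cdh20* lies just under that fold, and 1 member, *Cdh20*, was called in each of 3 alternatives (log2 ratios of -0.85, -1.11 and -1.76). These are fitted values against mutant signals not well above background, so they are no measured folds. The median log2 ratio of the 10 members was -0.013, beside 0.0024 over all genes tested. The levels of mutant and control pools did not overlap in 1 of the 10 (*Cdh20*), beside 4.28% of all tested genes. Ratios had the same sign on 4 of 4 arrays for 4 of the 10 (*Cdh2*, *Cdh10*, *Cdh13* and *Cdh20*), beside 18.2% of all tested genes. *Cdh20* entered the test through its control pools alone, as described below, so these counts were not independent of the filter on dim probes. RNA came from whole pooled ducts, in which fewer cells of a type and less RNA per cell cannot be told apart.

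**Figure D1:**
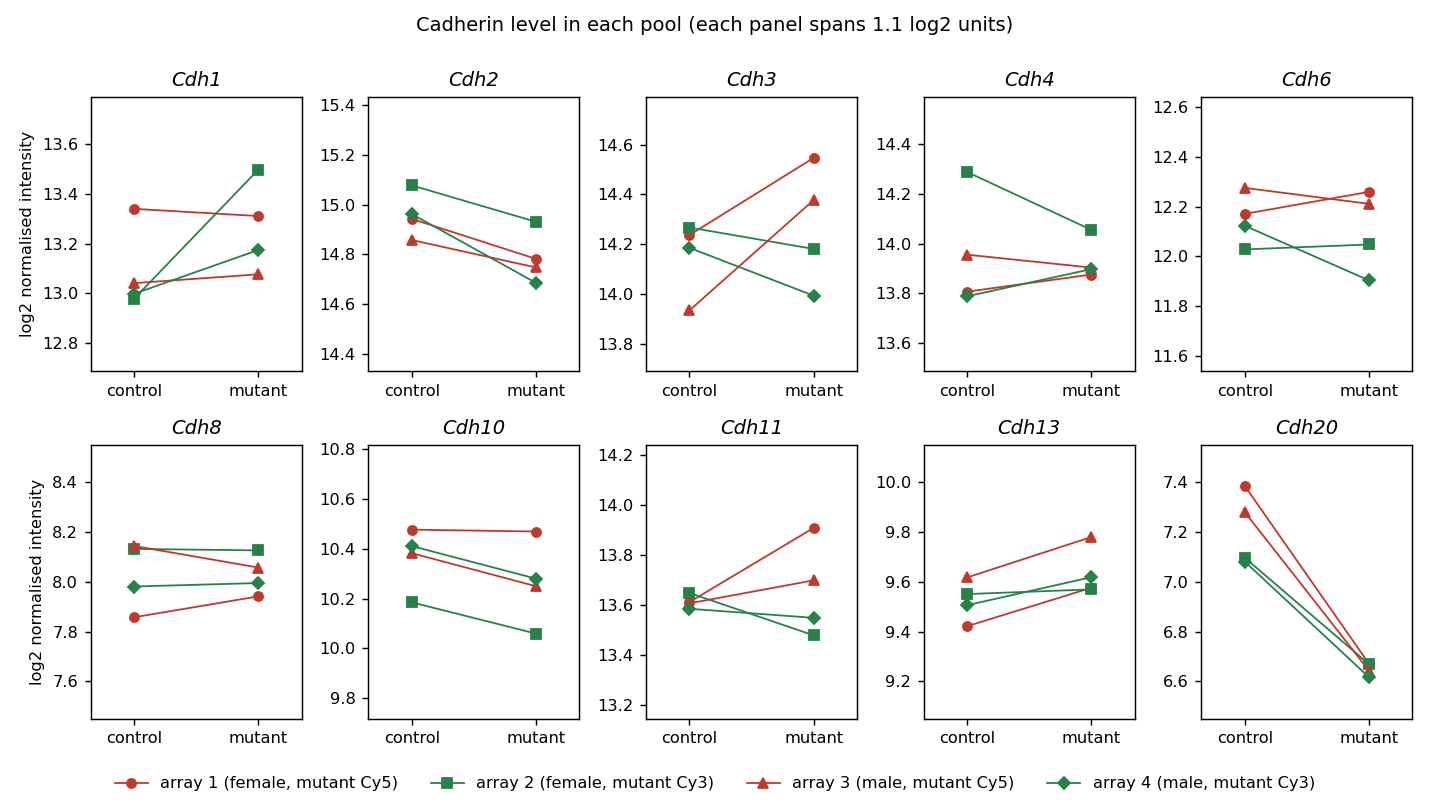
Level of the brightest probe of each cadherin (log2 normalised intensity) in the control and the mutant pool of each array, joined by a line, with each panel spanning the same height on its own axis. The 4 mutant pools of *Cdh20* lie between 6.62 and 6.67 and its 4 control pools between 7.08 and 7.38, and *Cdh2* is lower in the mutant on each of 4 arrays while its groups overlap.

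*Cdh20* carried the largest difference of the set. Its protein belongs to the type II cadherins, which are known to sort neurons and other cell groups during development. The single probe lies at chr1:106891123-106891182 on the plus strand (mm9, as the array files give it). Its levels in the mutant pools were 6.67, 6.67, 6.64 and 6.62 on arrays 1 to 4, and those in the control pools 7.38, 7.10, 7.28 and 7.08 (log2 normalised intensity). All mutant values lay below all control values. The log2 ratios on arrays 1 to 4 were -0.71, -0.43, -0.64 and -0.46, and their measured mean was -0.56 ± 0.14 (SD, n = 4).

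The probe was dim. It was well above background in 4 of 4 control pools and in 0 of 4 mutant pools, so its level in the mutant is only an upper limit and *Cdh20* was at least 1.47-fold lower there (measured means of 6.65 and 7.21, adjusted p = 0.00017 by limma). The probe entered the test through its control pools, and the small spread of its mutant values (SD 0.025) lies at the floor. No interval is therefore given for its ratio, and its adjusted p is no support for the difference. The fitted ratio was -0.85 with a smaller normexp offset, -1.11 in the value table deposited by the authors, -1.76 with Agilent's processed signals and -0.50 with median centring. In the first 3 of these settings the fitted value exceeded 1.5-fold. With median centring the difference was smaller than the -0.56 of the main fit, so the limit of 1.47-fold belongs to the main fit. Each fitted value was set against mutant signals not well above background, so none is a measured fold. *Cdh20* could not be tested when a probe had to be well above background in all 8 channel measurements. It passed in the 16 alternatives that gave a test, with adjusted p between 1.4e-05 and 0.0081 (limma). All of these used the same mutant signals, not well above background, so the passes are no further support for the difference. The log2 ratio was -0.57 in the female and -0.55 in the male arrays. *Cdh20* was the only member in the list of 90 lower genes that the study chose on these same pools, so that list is not independent evidence of its direction.

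Among the members 4 of 10 had a promoter in the RefSeq table used here (GRCm38.p6), and that of *Cdh20* is shown because this gene had the largest difference in ducts that carry a deleted T-box gene. The stretch is the 250 bases before the annotated start, chr1:104768270-104768519 on the plus strand, and capitals mark GGTGTG, the core of the site that T-box proteins are known to bind.
Cdh20 promoter: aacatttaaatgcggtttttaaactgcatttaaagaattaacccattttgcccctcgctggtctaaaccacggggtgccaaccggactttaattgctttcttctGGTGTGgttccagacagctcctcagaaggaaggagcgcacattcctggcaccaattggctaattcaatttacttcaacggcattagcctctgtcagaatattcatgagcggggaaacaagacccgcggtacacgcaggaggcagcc

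GGTGTG was found once, 146 to 141 bases before the start, on the strand of the gene. On either strand, 16.3% of 32851 promoters of this length held it. The E-box CAGGTG, which SNAI and ZEB repressors of *Cdh1* are known to bind, was not found in the *Cdh20* stretch and occurred in 17.2% of all promoters. The stretches of *Cdh6*, *Cdh8* and *Cdh10* held neither of these letters. Both motifs were searched on both strands, and a match is one of letters only.

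*Cdh2*, the neural and mesenchymal N-cadherin that marks the inner compartment, was measured by a pair of probes. The brighter probe had levels of 14.78, 14.93, 14.75 and 14.69 in the mutant pools and of 14.94, 15.08, 14.86 and 14.96 in the control pools (log2 normalised intensity). Every mutant pool lay below the control pool on its own array, but the groups overlapped, since the mutant pool of array 2 lay above the control pool of array 3. Its log2 ratios were -0.16, -0.15, -0.11 and -0.28, with a mean of -0.17 ± 0.072 (SD, n = 4), an SE of 0.038 and an adjusted p of 0.043 (limma). The 95% interval was -0.26 to -0.085, which stays below a 1.5-fold change.

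The dimmer *Cdh2* probe gave a larger ratio. Its levels were 14.21, 14.37, 14.23 and 14.41 in the mutant and 14.77, 14.41, 14.65 and 14.84 in the control pools, and the groups did not overlap, with the highest mutant pool at 14.41 just under the lowest control pool. The log2 ratios of this probe were -0.56, -0.045, -0.42 and -0.43, and their mean was -0.36 ± 0.22 (SD, n = 4). With every probe fitted as a row of its own, 1117 of 27963 probes passed. The dimmer *Cdh2* probe passed in that fit at an adjusted p of 0.023, and the brighter one did not, at 0.054 (limma).

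Whether *Cdh2* passed rested on the setting. It did not pass without the dye term (adjusted p = 0.220 by limma), in the comparison that ignored the pairing on the array (0.502), or without array 1, 3 or 4 (0.162, 0.159 and 0.215). The direction was lower in each of the 19 alternatives, with log2 ratios from -0.27 to -0.14.

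**Figure D2:**
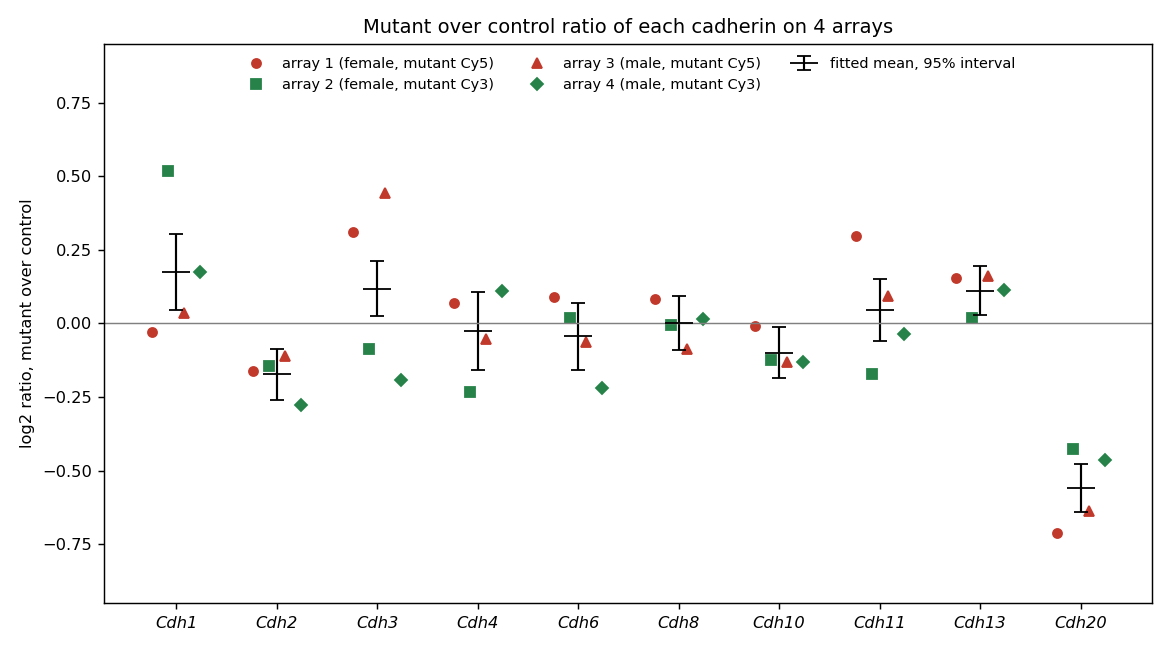
Log2 ratio of mutant over control for the brightest probe of each cadherin on the 4 arrays (coloured by the dye of the mutant pool), with the fitted mean and its 95% interval from limma in black (for *Cdh20*, against mutant signals at the floor, so that its bar is no limit on the change). *Cdh20* lies between -0.71 and -0.43 and *Cdh2* between -0.28 and -0.11, while the points of *Cdh3* lie above 0 where the mutant carried Cy5 and below 0 where it carried Cy3.

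*Cdh1*, the epithelial E-cadherin that marks the outer compartment, had levels of 13.31, 13.50, 13.08 and 13.17 in the mutant and 13.34, 12.98, 13.04 and 13.00 in the control pools (log2 normalised intensity). The groups overlapped, and the mutant pool of array 2 was the highest of all. The log2 ratios were -0.029, 0.52, 0.035 and 0.18, with a mean of 0.18 ± 0.24 (SD, n = 4). Its fitted ratio did not pass (SE 0.056, adjusted p = 0.128 by limma), and the 95% interval was 0.046 to 0.30. Without array 4 the log2 ratio was 0.26 and passed at an adjusted p of 0.019, and without array 2 it was 0.089 with an adjusted p of 0.401 (limma). The ratio averaged 0.0032 on the arrays with mutant Cy5 and 0.35 on those with mutant Cy3.

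*Cdh3*, the P-cadherin of epithelia, neighbours *Cdh1* on chromosome 8, where their probes lie 0.114 Mb apart. *Cdh3* had levels of 14.55, 14.18, 14.38 and 13.99 in the mutant and 14.24, 14.27, 13.93 and 14.19 in the control pools (log2 normalised intensity). Mutant pools were higher than their controls on arrays 1 and 3 and lower on arrays 2 and 4, with log2 ratios of 0.31, -0.086, 0.44 and -0.19. The sign thus followed the dye of the mutant pool, and the dye term of the fit was 0.26. The fitted genotype ratio was 0.12 (SE 0.040, adjusted p = 0.147 by limma). The SD of the 4 ratios was 0.31, beside a median of 0.10 over all genes tested.

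*Cdh4*, the retinal R-cadherin, was measured by 3 probes that differed. The brightest gave log2 ratios of 0.069, -0.23, -0.052 and 0.11 and a fitted ratio of -0.027 (adjusted p = 0.848 by limma). The next gave 0.061, -0.44, -0.15 and -0.37, and passed in the fit of every probe at -0.22 (adjusted p = 0.038 by limma). A far dimmer probe gave -0.36, -0.12, -0.091 and 0.062, with a mean of -0.13 and no pass (adjusted p = 0.259 by limma). The mutant and control pools overlapped for each of these probes. In the mean over its probes *Cdh4* did not pass either.

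**Figure D3:**
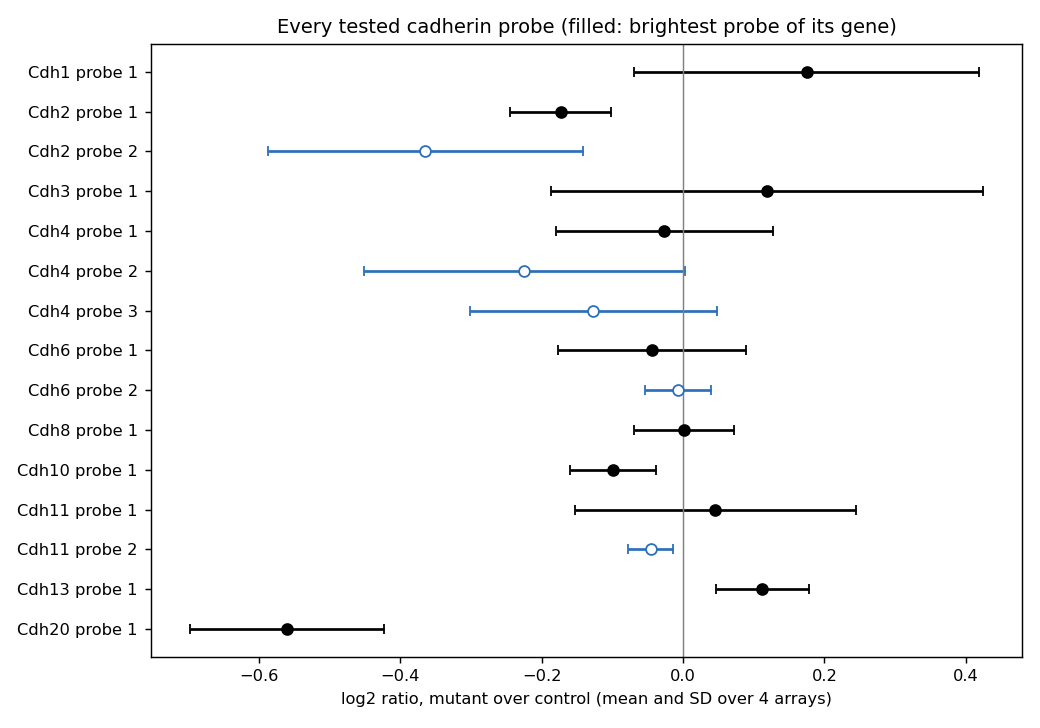
Mean and SD over 4 arrays of the log2 ratio of each of the 15 tested cadherin probes, with the brightest probe of a gene filled and its other probes open. The probes of *Cdh2* lie at -0.17 and -0.36 and those of *Cdh4* at -0.027, -0.22 and -0.13, whereas those of *Cdh6* and *Cdh11* differ by less than 0.1.

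The remaining type II cadherins showed no difference that passed. *Cdh6*, a cadherin of neural crest, kidney and nervous system, had a fitted log2 ratio of -0.044 (95% interval -0.16 to 0.071). Its log2 ratios were 0.089 and 0.020 on the female arrays and -0.064 and -0.22 on the male arrays. *Cdh8*, which is known from synaptic circuits, had a ratio of 0.0014 (95% interval -0.091 to 0.094). It was measured near the floor at levels of 7.86 to 8.14, and its other 2 probes were not well above background in any pool. *Cdh10*, another neural cadherin, had levels of 10.06 to 10.47 in the mutant and 10.18 to 10.48 in the control pools. All 4 arrays gave a lower mutant level, with a fitted log2 ratio of -0.099 (95% interval -0.18 to -0.013, adjusted p = 0.188 by limma).

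*Cdh11*, the mesenchymal OB-cadherin, had a fitted log2 ratio of 0.046 (95% interval -0.060 to 0.15) for its brighter probe. That probe was higher in the mutant on the arrays with mutant Cy5 (0.30 and 0.092) and lower on the others (-0.17 and -0.036), and the dimmer probe averaged -0.045. *Cdh13*, the T-cadherin of vessels and nerves, gave a higher mutant than control level on each of 4 arrays, with levels of 9.57 to 9.78 against 9.42 to 9.62. Its fitted log2 ratio was 0.11 (95% interval 0.030 to 0.19, adjusted p = 0.127 by limma), and its other probe was not well above background in any pool. The intervals of 9 of the 10 cadherins lay within a 1.5-fold change in either direction, and *Cdh20* had only the lower limit given above.

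By type, 1 of 4 type I cadherins passed (*Cdh2*), with a median log2 ratio of 0.046. Of 5 type II cadherins 1 passed (*Cdh20*, which entered the test through its control pools), with a median of -0.044. Across all tested genes 5.18% passed in either direction. The effect of genotype on no cadherin differed between the sexes after adjustment (limma interaction term). Over all genes 0 passed that test and 558 had an unadjusted p below 0.05.

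The probe of *Cdh20* lies 5.144 Mb from that of *Cdh7* and 5.895 Mb from that of *Cdh19* on chromosome 1, 2 other type II cadherins. *Cdh19*, which is known from Schwann cell precursors, fell on 4 of 4 arrays, with log2 ratios of -0.60, -0.48, -0.90 and -0.55 (fitted -0.63, adjusted p = 0.00046 by limma), and is in the study's list of lower genes too. *Cdh19* was dim in the mutant pools, at levels of 7.18 to 7.40, though well above background in 4 of 4. *Cdh7* had a log2 ratio of 0.038 (adjusted p = 0.662 by limma). Its probe lay near the floor at levels of 6.75 to 6.93, well above background in 4 of 4 mutant and 3 of 4 control pools. The other *Cdh7* probes were not well above background in any pool, so this ratio cannot show that *Cdh7* was unchanged. *Rnf152* and *Pign*, which follow *Cdh20* in the gene order, had log2 ratios of -0.071 and 0.019 and did not pass.

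Of 13 other cadherins 12 were tested, and 5 passed. *Cdh19* (-0.63), the muscle M-cadherin *Cdh15* (-0.32) and the neural *Cdh9* (-0.26) were lower, and *Cdh12* (0.21) and *Cdh22* (0.21) were higher, with a median of 0.019 over the 12. For the catenins and other proteins of the adherens junction, 2 of 16 passed. The nectin gene *Pvrl3* rose by 0.26 and *Ctnnd2*, the neural delta-catenin, fell by 0.21 on the log2 scale. The catenins that bind classical cadherins in epithelia had log2 ratios of -0.028 for *Ctnnb1*, -0.042 for *Ctnna1* and 0.015 for *Ctnnd1*, and did not pass. Of the desmosome genes 1 of 8 tested passed, the desmosomal cadherin *Dsc2* (0.20).

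A list of cadherin regulators held SNAI, ZEB, TWIST, GRHL and OVOL genes and *Tcf3*, together with the ESRP genes, which encode splicing regulators. Of its 14 tested genes 0 passed in limma's test, with log2 ratios from -0.18 to 0.15. Of 13 genes of cadherin cleavage and turnover, such as *Adam10* and the gamma-secretase subunits, 0 passed as well, from -0.094 to 0.15. At an unadjusted p below 0.05 there were 4 genes in the former list and 1 in the latter. Of 40 protocadherins tested, 3 passed. *Pcdh18* (0.42) and *Pcdh10* (0.18) were higher and *Pcdhac2* (-0.20) was lower.

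**Figure D4:**
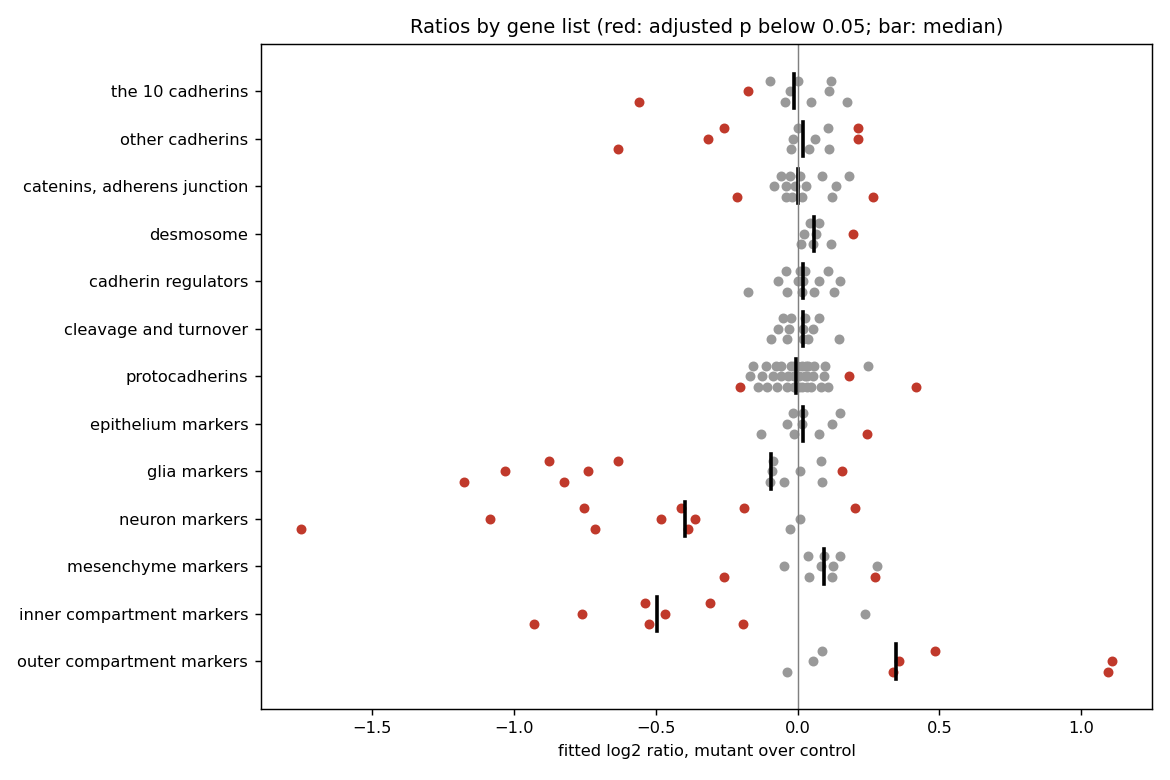
Fitted log2 ratios of mutant over control for each tested gene, grouped by list, with red points for an adjusted p below 0.05 and a black bar at the median of each list; *Cdh19* appears among both the other cadherins and the glia markers. The cadherin and junction lists centre between -0.013 and 0.059, whereas the medians of the neuron, inner compartment and outer compartment markers lie at -0.40, -0.50 and 0.35.

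Marker genes of other cells moved with the genotype. Of 14 glia and Schwann precursor markers 6 were lower (*Foxd3* -1.17, *Fabp7* -1.03, *Dhh* -0.88, *Gpr17* -0.82, *Ngfr* -0.74 and *Cdh19* -0.63), while *Sox10* had a log2 ratio of 0.0099 and *Erbb3* of -0.085 and did not pass. The mean level of this list was 10.65 to 10.74 in mutant and 10.96 to 11.14 in control pools (log2 normalised intensity), and 6 of its 14 genes are in the study's list of lower genes. Of 12 neuron markers 9 were lower (*Stmn3* -1.75, *Elavl3* -1.08, *Pou4f1* -0.75, *Nefm* -0.72, *Nefl* -0.48 and *Stmn2* -0.41 changed most) and *Isl1* was higher (0.20), and their mean level was 10.45 to 10.698 in mutant and 10.86 to 11.22 in control pools. The study removed the spiral ganglion during dissection. In neither list was a marker below background in every pool. The part of these cells in the lower *Cdh20* and *Cdh2* was not tested.

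Of 8 markers of the inner compartment and medial duct 7 were lower (*Fgf8* -0.93, *Otoa* -0.76, *Fgf20* -0.54, *Lfng* -0.52, *Fgf10* -0.47 and *Tecta* -0.31 changed most), with mean levels of 11.37 to 11.45 in mutant and 11.79 to 11.92 in control pools. Of 8 markers of the outer compartment and lateral duct 5 were higher (*Fgfr3* 1.11, *Crhr1* 1.09, *Lgr6* 0.48, *Hey2* 0.36 and *Gata3* 0.34), with mean levels of 12.75 to 12.92 in mutant and 12.35 to 12.47 in control pools. Of the inner compartment markers 3 are in the study's list of lower genes. The cadherin markers of the compartments, *Cdh2* and *Cdh1*, had log2 ratios of -0.17 and 0.18 in the same pools, of which only that of *Cdh2* passed. The epithelial list had a median log2 ratio of 0.018 over its 10 genes. In the mesenchyme list 2 of 11 passed (*Col1a1* 0.27 and *Postn* -0.26), and in the endothelial list 2 of 8 (*Cldn5* 0.21 and *Esam* 0.16). Their median log2 ratios were 0.094 and 0.090, and 7 and 4 of their genes had an unadjusted p below 0.05. On 4 of 4 arrays 5 mesenchyme genes were higher and 1 was lower. In the melanocyte list and in the blood and macrophage list, 0 of 8 passed in each, with 2 genes of each list at an unadjusted p below 0.05.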

How the data were processed

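Total RNA of 8 pools of E14.5 cochlear ducts (4 mutant, 4 control) was hybridised to 4 arrays on 1 slide, so a slide block could not be fitted. The authors deposited the output of Agilent Feature Extraction 10.7.3.1 (per the submitters' processing notes and the file headers), from which the unnormalised mean and background intensity of each spot in both dyes, and the processed intensity as an alternative, were used. The flags for background and outliers, other values of 0 or 1 in the files the authors deposited, served as filters. The authors also deposited a value table with 1 score for each probe and array, which behaved as a fold change with a sign, mutant against control (r of 0.912 to 0.942 with the log2 ratios computed here, over tested probes; the median of each column was 1). Its normalization is not given in the sources used here.

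Background was corrected with normexp (offset 50) and ratios were normalized by loess in limma 3.58.1 (R 4.3.3), and unflagged spots (of 4 per probe) were averaged. Levels came from the separate channels after Aquantile. A probe was tested if well above background in at least 4 of 8 channel measurements, and each gene was represented by its brightest such probe. The fit held the genotype direction and a dye term, with 2 residual and 5.65 prior degrees of freedom, and pairing by the hybridisation. Calls needed an adjusted p below 0.05 and a 1.5-fold change. "At least" folds set the control mean against the higher of the dim probe's own mean and the lowest signal well above background. For *Cdh20* the probe's own mean was the higher, so its limit equals its fitted fold. Precision is limited by the number of arrays. Pools are the replicates.

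The members and lists were chosen with earlier results of these data known. Named genes were all members, up to 6 passing genes of each other list with the largest changes, and *Cdh7*, *Cdh19*, *Tbx2* and *Esr1*. The other genes named without passing, *Isl1* and the neighbours of *Cdh20* were added after their values were seen. Some genes of the marker lists are not reported here. The fits were tested on simulated data, whose noise model was changed after a first run had given too many false passes. The share of false passes stayed above the nominal level, so an adjusted p close to the threshold, as for *Cdh2*, is weak. Probe coordinates are those of the files (mm9), and the exon or UTR at a probe was not determined. The header names a custom design, and the methods give Whole Mouse Genome Oligo v2 instead. The SAM comparison of the methods was not rerun, and an unpaired limma fit of the separate channels took its place. Protein sequences were not analysed here.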

Additional observations from a re-analysis of the deposited data

Results flagged for a closer look

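Over the 15 tested cadherin probes, 45 groups of 4 values (mutant levels, control levels and ratios) were examined for a value that stands apart by Dixon's criterion, which chance meets in about 5% of groups, and 2 did. The brightest probe of *Cdh4* had a level of 14.06 in the mutant pool of array 2, beside 13.88 to 13.90 in the other mutant pools, and the gap was 0.844 of the range. The ratio of *Cdh10* was -0.0075 on array 1, beside -0.13 on each of the others, and the gap was 0.943 of the range. The log2 ratio of *Cdh6* was lower in male than in female pools, with a difference of -0.20 (unadjusted p = 0.043 for the interaction term of limma, adjusted p = 1.00), so it did not pass over all genes.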

How the results depend on the processing

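The lower *Cdh20* kept its direction and its pass in each alternative that gave a test. Its mutant signals were not well above background in any pool, so these repeated passes are no further support. The *Cdh2* ratio no longer passed with offset 10 (-0.17, adjusted p = 0.061 by limma), Agilent's processed signals (-0.17, 0.111), no dye term (-0.17, 0.220), separate channels with no replicate block, which drops the pairing by array (-0.17, 0.502), the authors' value table (-0.17, 0.153), the sex of the pools as a term (-0.17, 0.054) and every tested probe as a row (-0.17, 0.054, an alternative chosen after seeing the data). Leaving out 1 array moved it between -0.21 and -0.14. Separate channels with the array as a replicate block are the same model as the ratios within arrays and gave the same values, so this is no further check. The number of cadherins passing was 1 instead of 2 with offset 10, processed signals, no dye term, no replicate block, the value table, the sex term and the filter of all 8 measurements, and 1 to 2 without 1 array. The number called was 1 instead of 0 with offset 10, processed signals and the value table.

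Ratios near 0 changed sign when 1 array was left out. *Cdh4* ranged from -0.11 to 0.059 (0.0035 without array 3), *Cdh6* from -0.10 to 0.016, *Cdh8* from -0.041 to 0.044 (-0.0036 without array 4) and *Cdh11* from -0.0054 to 0.097. *Cdh8* was also -0.0021 with offset 10. *Cdh1* ranged from 0.089 without array 2, where it did not pass, to 0.26 without array 4, where it passed. Over all genes 1091 passed, against 616 with processed signals, 264 without a dye term, 217 with no replicate block, 414 in the value table and 411 to 1278 without 1 array. Genes called lower were 65, against 117 with processed signals and 99 in the value table. The causes were not tested. The mutant signal of *Cdh20*, not well above background, limits what its size can show.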
